A study of Mus musculus with 22 samples.

Results

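Retinoic acid is a small lipid signal that the embryo makes from vitamin A. Aldh1a2 encodes the retinaldehyde dehydrogenase that performs the last step of its synthesis in the early trunk mesoderm. The Cyp26 enzymes Cyp26a1, Cyp26b1 and Cyp26c1 oxidise it and so clear it from cells, the cellular binding proteins Crabp1 and Crabp2 carry it inside the cell, and the nuclear receptors Rara, Rarb and Rarg, each paired with an RXR receptor, bind DNA and turn target genes on or off. In the mouse embryo the synthesis gene is known from presomitic mesoderm and somites and Cyp26a1 from the tail end, where stem-like axial progenitors are kept. The account below follows these 9 genes, chosen by symbol from the 32285 genes measured. In all final cells together Aldh1a2 had 364717 unique molecular identifiers (UMIs, counted mRNA molecules), Crabp1 285443, Crabp2 229825, Rarg 51686, Rara 44216, Cyp26a1 27925, Rarb 3126, Cyp26b1 776 and Cyp26c1 32.

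The samples were gastruloids, aggregates of mouse embryonic stem cells in which cells like those of the early trunk arise without a uterus or extraembryonic tissue. All were made from wild type E14Tg2A, a single mouse embryonic stem cell line. In every group 300 cells were seeded per well, aggregated for 48 h and given a pulse of 3 µM CHIR99021, a GSK3 inhibitor that activates Wnt signalling. The N2B27 medium held a B-27 supplement that the labels give by catalogue number. From general knowledge and not from the labels, that entry is one sold without vitamin A, and no label names where retinoid in these cultures comes from. No group was treated with retinoic acid, an inhibitor or a genetic change, and the groups differ by day of culture, experiment and pool. For barcoding, gastruloids judged representative were picked, dissociated singly and labelled with a lipid-anchored DNA barcode each (MULTI-seq), after which a pool was split over lanes of the 10x 3′ assay. The replicate is the gastruloid. MULTI-seq 3 is the main series, with 24 gastruloids of day 3 in a pool of their own, 16 of day 3.5 and 16 of day 4 in one pool, and 16 of day 4.5 and 16 of day 5 in another. MULTI-seq 1 held 24 gastruloids of day 5, and MULTI-seq 2 gave 11 of day 4 and 12 of day 4.5 from one pool. Because day 3, days 3.5 and 4, and days 4.5 and 5 of MULTI-seq 3 were in different pools, day and pool cannot be told apart across those borders, and tests were made within a pool.

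Of the deposited cell table, 77674 final cells in 18 lanes had a cell barcode in the matrices. Of these, 53730 carried the MULTI-seq barcode of 1 of 136 gastruloids, and 135 gastruloids had at least 30 cells. The median cell had 8287 to 38443 UMIs, depending on the lane. Total UMIs per gastruloid differed between days of one pool: a day 4 gastruloid of MULTI-seq 3 held 14647539 to 57333371 UMIs and a day 3.5 gastruloid 3081996 to 20789027. Cell numbers differed as well, with 13750 cells of called gastruloids at day 4 and 4679 at day 3.5, so these totals do not measure depth per cell. Levels are therefore given as CPM, the UMIs of a gene scaled to 1000000 UMIs of a whole gastruloid or of its cells of one cluster name, and compare 1 gene between samples, never 2 genes with each other. The authors gave each cell 1 of 25 cluster names, such as PSM (presomitic mesoderm) or NMPs (neuromesodermal progenitors). Of 4 textbook markers per name, 3 or 4 reached 1 CPM in every name. The summed markers of a name had a rank of 1 to 4 among the 25 names for 22 of them. Early Neurectoderm ranked 10 for its markers, Caudal Neurectoderm 7 and Epiblast 6, so these labels rest on less. A gastruloid of day 4.5 in MULTI-seq 3 stood apart from the other 15 in Crabp2. It was picked, after the data had been seen, as the one farthest from the median Crabp2 level of that day. Of its 397 cells, 44.1% were Late Neurectoderm and 35.5% Late Spinal Cord. The tests that include it were also run without it, which is no independent check on Crabp2.

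Of the 9 genes, 8 had promoter windows in the RefSeq table of GRCm38.p6, 12 windows in all, each running from 250 bases before to 50 bases after a transcription start. Retinoic acid receptors are known to bind pairs of a core of 6 bases repeated in the same direction. Windows were searched on both strands for 2 such cores with 5 bases between them, and other spacings were not searched. A core could read AGGTCA, the textbook form, or AGTTCA, or it could instead begin with another G and read GGGTCA, or else GGTTCA. This repeat was in 2 of the 12 windows, against 32 of all 32851 windows in the table (0.0974%). The part upstream of the start is shown for both, because they belong to a degradation gene and a receptor gene, 2 known targets of the signal they act on. Since they were known targets before the search, the counts of windows are no test of enrichment. Capitals mark the repeat, each sequence is written 5′ to 3′ along its gene's strand, and the match describes letters only.
Cyp26a1 (chr19:37697558-37697807, plus strand): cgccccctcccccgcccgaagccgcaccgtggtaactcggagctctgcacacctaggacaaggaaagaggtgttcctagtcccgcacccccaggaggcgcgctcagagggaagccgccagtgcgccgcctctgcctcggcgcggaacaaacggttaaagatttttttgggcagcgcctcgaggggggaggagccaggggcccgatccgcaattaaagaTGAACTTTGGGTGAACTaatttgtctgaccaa
Rarb (chr14:16575477-16575726, minus strand): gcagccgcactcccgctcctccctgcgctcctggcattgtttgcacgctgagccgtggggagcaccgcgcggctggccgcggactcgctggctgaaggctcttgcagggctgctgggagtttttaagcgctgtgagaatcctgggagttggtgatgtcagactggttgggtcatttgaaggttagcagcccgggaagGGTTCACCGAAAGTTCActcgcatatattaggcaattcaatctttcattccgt
The repeat in the Cyp26a1 window, TGAACTTTGGGTGAACT, lay 32 to 16 bases upstream of the start and reads as a direct repeat on the other strand. In the window of Rarb, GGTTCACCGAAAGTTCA lay 53 to 37 bases upstream on the strand of the gene. Cyp26a1 (ENSMUSG00000024987) spans chr19:37697798-37701536 in mm10 (GENCODE M21), and Cyp26c1 (ENSMUSG00000062432) lies next to it at chr19:37685581-37693398 on the same strand. Rarb (ENSMUSG00000017491) spans chr14:16430839-16819156 on the minus strand and has several starts, of which this is one.

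Over whole gastruloids, the synthesis gene Aldh1a2 (ENSMUSG00000013584, chr9:71215789-71296243, plus strand) was near absent at day 3 and had its highest mean at day 4, with lower means after it. At day 3 its level was 2.13 ± 3.41 CPM (SD, n = 24), from 0.173 over a median of 1.15 to 15.4. At day 3.5 it was 141 ± 164 CPM (SD, n = 16), with a lowest value of 5.52, a median of 52.4 and a highest of 468. The day 4 level was 378 ± 194 CPM (SD, n = 16), from 65.0 over a median of 374 to 643. All day 4 gastruloids of MULTI-seq 3 were thus above all day 3 gastruloids, whereas the values of days 3.5 and 4 overlapped and those of day 3.5 were spread over almost 2 orders of magnitude. Levels of 113 ± 67.8 CPM at day 4.5 (7.66 to 209, n = 16) and 52.5 ± 22.7 at day 5 (16.8 to 91.0, n = 16) followed. MULTI-seq 1 gave 64.0 ± 40.4 CPM at day 5 (13.2 to 168, n = 24), and MULTI-seq 2 gave 228 ± 142 at day 4 (27.3 to 441, n = 11) and 124 ± 79.5 at day 4.5 (18.4 to 232, n = 12). The same order of days 4, 4.5 and 5 was thus seen with gastruloids of other experiments, although depths and pools differ. The pooled 10X lane of day 3 was higher than its MULTI-seq 3 counterparts, with 36.1 CPM of Aldh1a2 (95% exact Poisson interval 34.5 to 37.7, counting error only), and the 10X lane of day 4 had 269 (263 to 274).

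Cyp26a1, the main degradation gene by counts, did not follow the same course. The day 3 level was 11.4 ± 12.6 CPM, with a range of 0.563 to 54.3, and day 3.5 gave 8.93 ± 12.6 (range 0.362 to 35.7), with n as above. Its highest mean, 21.5 ± 14.9 CPM, belonged to day 4 (range 1.09 to 51.0). Means of 3.68 ± 2.76 (day 4.5, range 0.238 to 8.66) and 5.37 ± 3.49 CPM (day 5, range 0.797 to 12.6) came last. Ranges of all 5 days overlapped. At day 3.5 the median was 1.25 CPM, so that most gastruloids were low and a few carried the mean. The 2 other Cyp26 genes hardly registered: Cyp26b1 stayed between 0.110 and 0.424 CPM as a mean at the 5 days, and Cyp26c1 at or below 0.0189.

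The binding protein genes Crabp1 (ENSMUSG00000032291, chr9:54764748-54773110, plus strand) and Crabp2 (ENSMUSG00000004885, chr3:87948666-87953376, plus strand) peaked at different days. Crabp1 went from 10.5 ± 7.60 CPM at day 3 and 52.5 ± 46.2 at day 3.5 to 248 ± 87.6 at day 4, and was at 161 ± 116 at day 4.5 and 81.6 ± 35 at day 5. Crabp2 was at 42.7 ± 6.09, 57.5 ± 15.6 and 45.2 ± 20.4 CPM at days 3, 3.5 and 4, and at 167 ± 151 and 199 ± 150 at days 4.5 and 5. The highest value of both genes at day 4.5 came from the gastruloid that stood apart, with 530 CPM of Crabp1 and 681 of Crabp2 beside 7.66 of Aldh1a2. Its Crabp2 level is what it was picked by.

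Among the receptors, Rara (ENSMUSG00000037992, chr11:98927818-98974942, plus strand) varied least: its day means lay between 15.0 and 24.3 CPM, and its coefficient of variation between gastruloids was 12% to 14.7% at each day. Rarg (ENSMUSG00000001288, chr15:102234938-102257517, minus strand) was highest at day 3.5, at 37.8 ± 13.1 CPM, and had means of 18.3 to 24.7 at the other 4 days. Rarb was at 0.138 and 0.169 CPM at days 3 and 3.5 and at 2.49 ± 2.29 at day 4 (0.205 to 7.25), 1.36 at day 4.5 and 1.31 at day 5.

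**Figure D1:**
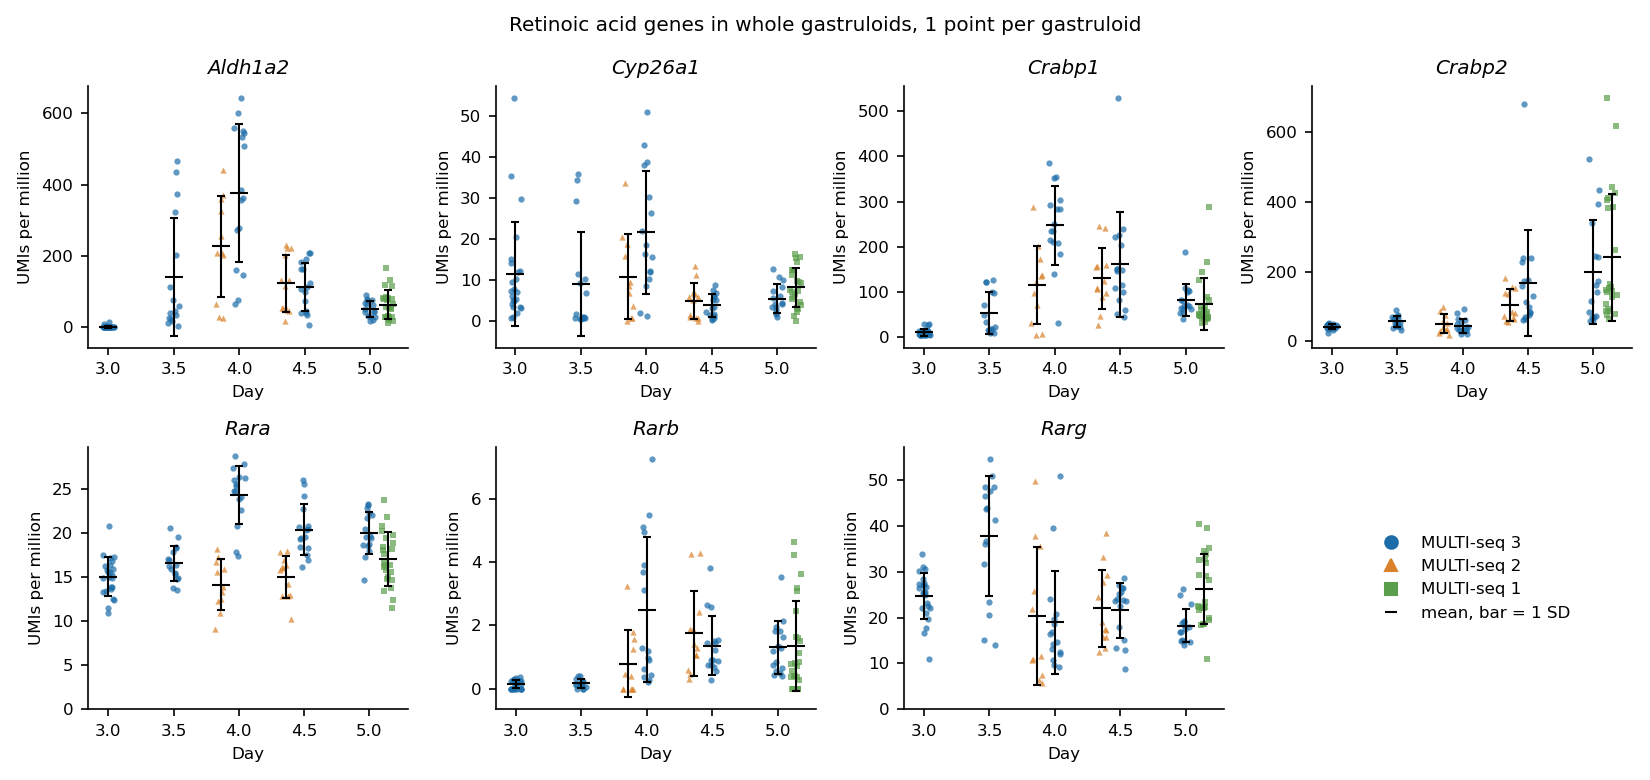
Level of each gene in whole gastruloids (CPM, y axis, linear from 0) against day of culture (x axis), 1 point per gastruloid and 1 colour per experiment, with the mean and 1 SD for MULTI-seq 3. Aldh1a2 and Crabp1 peak at day 4 (378 and 248 CPM in MULTI-seq 3), Crabp2 is highest at day 5 (199), and Rara stays between means of 15.0 and 24.3.

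Resolved by cluster name, Aldh1a2 belonged to the presomitic and somitic mesoderm. At day 4 it was highest in Early Anterior PSM, at 1059 ± 123 CPM (SD, n = 14 gastruloids; 867 to 1251). Early Posterior PSM (983 ± 137), Late Anterior PSM (900 ± 174) and Somites (733 ± 124) followed, and none of these neighbours in the order differed by more than the larger of their SDs. Below that came a step to Late Posterior PSM (371 ± 88.8), Cardiopharyngeal Mesoderm (325 ± 77.1) and Mature Somites (289). At the bottom stood NMPs at 9.76 CPM and Mature Endoderm at 3.83. Early Anterior PSM of MULTI-seq 2 at day 4 had 1099 ± 235 CPM, within the SD of the value above. The order at day 5 was led by Late Anterior PSM, at 275 ± 99.6 CPM (n = 15; 127 to 494), and Somites, at 201 ± 59.0 (n = 12; 91.5 to 290), with Late Posterior PSM at 84.8 and Mature Somites at 80.1. Neural names were low then, with 5.15 in Early Spinal Cord, and NMPs were at 1.77. Cluster names were made from the same expression values, so differences between names are described and not tested.

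The cells that held most of the Aldh1a2 mRNA changed with the day. Early Posterior PSM held 60.9% of the Aldh1a2 UMIs at day 3 with 5.56% of the cells, and 88.8% at day 3.5 with 26.3% of the cells. At day 4, Early Anterior PSM (33.3% of UMIs, 12.9% of cells) and Early Posterior PSM (31.9% of UMIs, 13.9% of cells) shared it. At day 5 the largest share was in Mature Somites, with 41.3% of the UMIs and 28.8% of the cells, followed by Late Anterior PSM with 25.2% of the UMIs in 5.04% of the cells. After each cell was thinned to 4000 UMIs, a UMI of Aldh1a2 was found in 95.5% of Early Anterior PSM cells at day 4 (99.7% unthinned; median depth 29483). The lowest share among the names of that day was 2.14% in Mature Endoderm (15.8% unthinned; median depth 40442), and free RNA in the lane can give such a share. The gap between both shares is far above that background.

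Cyp26a1 was highest in a different set of cells: Early Nascent Mesoderm first, later Head Mesoderm and NMPs. In Early Nascent Mesoderm it was at 73.1 ± 33.3 CPM at day 3 (n = 20; 13.7 to 136), 172 ± 47.3 at day 3.5 (n = 6; 94.7 to 233) and 234 ± 7.24 at day 4 (n = 4; 225 to 242). These 3 days lead the order beyond the SDs of the next name, which was Anterior Primitive Streak at day 3 (32.7 CPM) and Late Nascent Mesoderm at day 4 (83.7 ± 51.7). Mature Endoderm (47.4), Head Mesoderm (33.4) and NMPs (17.8) came next at day 4, without steps beyond their SDs. By day 5, Head Mesoderm led with 59.2 ± 13.4 CPM (n = 7; 40.1 to 81.1), NMPs had 31.8 ± 10.7 (n = 16; 17.1 to 55.0), Mature Endoderm 11.8 and Endothelium 11. The same names in MULTI-seq 1 at day 5 had 63.7 CPM in Head Mesoderm and 44.3 in NMPs. Late Anterior PSM (0.0330) and Somites (0.111), where Aldh1a2 was highest, were almost without it.

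By share of the message, Early Nascent Mesoderm held 83.5% of Cyp26a1 UMIs at day 3 in 11.4% of cells and 54.7% at day 3.5 in 3.57% of cells. Late Nascent Mesoderm (40.5% of UMIs, 9.72% of cells) and Mature Endoderm (23.7%, 8.64% of cells) held most at day 4, and NMPs (44.5%, 7.67% of cells), Head Mesoderm (22.9%, 2.23% of cells) and Mature Endoderm (17.5%) at day 5. In thinned cells of day 4 a Cyp26a1 UMI was found in 56.0% of Early Nascent Mesoderm cells (92.7% unthinned; median depth 35050) and in 0.278% of Mature Somites cells (2.57% unthinned; median depth 28007), the lowest share of that day among names with a value above 0.

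Synthesis and degradation genes were seen in the same name chiefly in nascent mesoderm of days 3.5 and 4. In Early Nascent Mesoderm of day 4, 27.4% of thinned cells had an Aldh1a2 UMI, 56.0% a Cyp26a1 UMI and 14.7% both, as means over gastruloids. The product of the shares was taken within each gastruloid and then averaged, here to 16.6%, so it differs from the product of the mean shares. The share with both exceeded the product in 1 of 4 gastruloids. At day 3.5 these cells gave 7.65% with both against a product of 9.97% (above it in 1 of 6 gastruloids), and Late Nascent Mesoderm of day 4 gave 7.19% against 7.62% (above it in 4 of 14). Barcodes with UMIs of both genes were thus found in these names, at rates at or a little below the product of the shares. The part of free RNA and of doublets within a gastruloid in them was not tested. Among the presomitic and somitic names, Early Posterior PSM of day 4 had the highest Cyp26a1 level, 9.97 ± 7.49 CPM (n = 16). Across 46 pairs of a name and a day in MULTI-seq 3 with at least 5 gastruloids, Pearson's r between the log2 levels of the genes was -0.16, a description over points that share lanes and gastruloids.

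**Figure D2:**
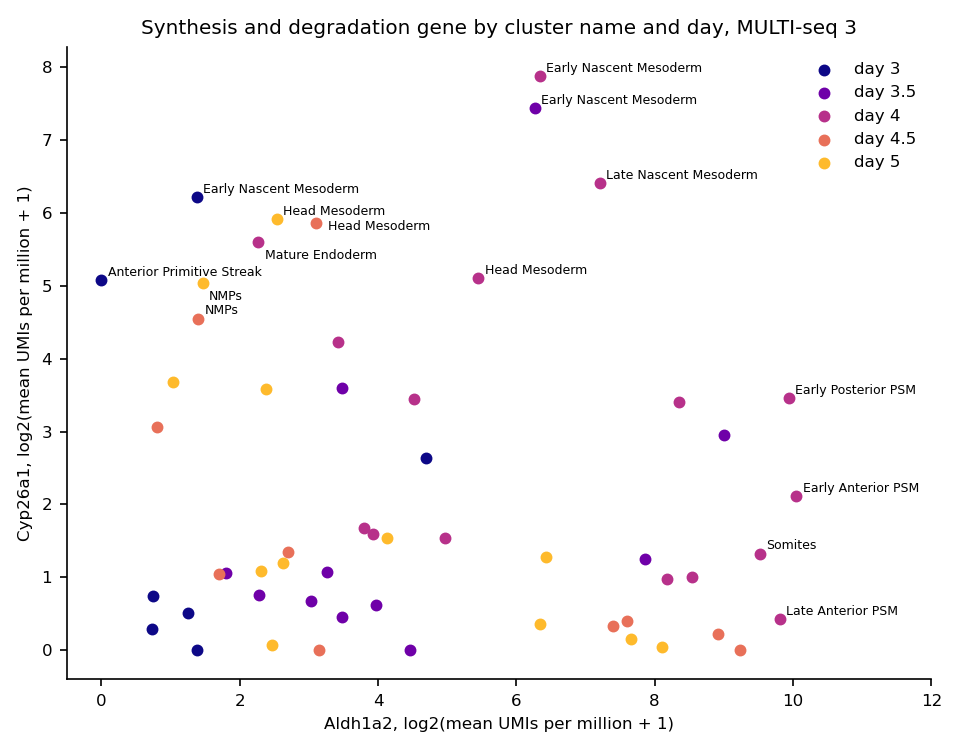
Mean level of Cyp26a1 (y axis) against that of Aldh1a2 (x axis), both as log2(mean CPM + 1), for each cluster name and day of MULTI-seq 3 with at least 3 gastruloids, 1 point each, coloured by day. Presomitic and somitic names of days 3.5 to 4.5 lie at the right, and those of days 3 and 5 reach further left, all with lower Cyp26a1 (at most 9.97 CPM, in Early Posterior PSM of day 4), Head Mesoderm and NMPs of days 4.5 and 5 and Early Nascent Mesoderm of day 3 at the upper left, and nascent mesoderm of days 3.5 and 4 in between with both genes.

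Cyp26b1 and Cyp26c1 are known from hindbrain, limb and head of later embryos. Of the 776 Cyp26b1 UMIs, 185 were in Early Spinal Cord, 113 in Caudal Epiblast, 84 in Caudal Neurectoderm, 71 in NMPs and 64 in Late Neurectoderm. Scaled to all UMIs of a name, the order was Late Neurectoderm (1.52 CPM), Caudal Neurectoderm (0.986), Caudal Epiblast (0.932), Early Spinal Cord (0.874) and NMPs (0.812). The other 20 names were at 0.414 CPM or less, with Late Spinal Cord, also neural, at 0.217. This order pools all final cells of all experiments and days. Within single days no name differed from the next beyond their SDs. Of the 64 UMIs in Late Neurectoderm, 27 were from day 4.5 of MULTI-seq 3. There the 2 gastruloids other than the one that stood apart had 0, so the lead of this name rests largely on 1 gastruloid. The 32 Cyp26c1 UMIs were spread over several names, with 7 in Mature Endoderm, 6 in Head Mesoderm, 6 in Late Nascent Mesoderm and 5 in NMPs, too few for a pattern.

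Crabp1 was highest in mesodermal names at days 3, 3.5 and 4. It led at day 4 in Cardiopharyngeal Mesoderm (531 ± 60.9 CPM, n = 8), Somites (488 ± 151), Late Anterior PSM (474 ± 125), Mature Somites (435 ± 41.4) and Early Anterior PSM (408 ± 82.2), 5 names in a row that did not differ from their neighbours beyond their SDs. The lowest levels of that day ran from 8.23 in NMPs down to 3.89 in Mature Endoderm, over 6 names that also held Early Spinal Cord, Primitive Streak, Notochord and Caudal Epiblast. At day 4.5 the first name was neural, Late Neurectoderm at 487 ± 518 CPM (n = 3; 82.2 to 1071), with Mature Somites at 459 ± 320 (n = 13) within its spread. That lead rests on the gastruloid that stood apart: without it, Late Neurectoderm was at 195 CPM (82.2 and 308 in 2 gastruloids) and Mature Somites came first at 454 ± 334 (n = 12). At day 5 Head Mesoderm had 793 ± 337 CPM (n = 7; 376 to 1432), and Late Neurectoderm 470 ± 422 (n = 4; 32.8 to 918), with a spread as wide as its mean. Mature Somites (129 ± 90.1), Late Posterior PSM (101 ± 22.6), Late Anterior PSM (93.3 ± 24.3) and Somites (88.3 ± 27.8) formed the next group.

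Crabp2 was highest in neural names at days 4.5 and 5 and in progenitor names before that, with presomitic mesoderm close to them at first. At day 3.5 Caudal Epiblast had 125 ± 60.4 CPM (n = 15) and Late Posterior PSM 116 ± 36.6 (n = 4), within each other's SDs. At day 4 it was highest in NMPs (232 ± 54.0, n = 14) and Caudal Epiblast (183 ± 66.1, n = 15). At day 5 it was at 636 ± 53.1 CPM in Late Neurectoderm (n = 4; 580 to 701) and at 622 ± 64.5 in Late Spinal Cord (n = 8; 538 to 725), which did not differ beyond their SDs, ahead of Early Spinal Cord (237 ± 51.5, n = 16) and NMPs (207 ± 40.2, n = 16). Mature Endoderm was lowest at day 4, with 2.19 CPM.

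Rarg and Rara differed in the range of their levels over names. Rarg was high in progenitor and early neural names, with 69.3 ± 10.8 CPM in Early Spinal Cord (n = 5), 67.2 ± 15.6 in NMPs (n = 14) and 63.0 ± 6.04 in Caudal Epiblast (n = 15) at day 4, each within the SDs of its neighbour in this order. At day 5 NMPs had 58.8 ± 10.3 CPM and Early Spinal Cord 39.8 ± 6.27, while Somites had 1.84. Rara, by contrast, had a narrower range. At day 4 it ran from 14.5 CPM in Early Spinal Cord to 35.8 ± 5.37 in Mature Somites. At day 5 it ran from 8.62 in Late Anterior PSM to 30.7 ± 4.49 in Mature Endoderm. Neighbours in these orders were mostly within an SD of each other. Rarb reached 7.90 ± 2.68 CPM in Head Mesoderm (n = 7), 7.63 ± 1.97 in Mature Somites (n = 7) and 6.54 ± 3.94 in Cardiopharyngeal Mesoderm (n = 8) at day 4. Mature Endoderm led Rarb at day 5 with 7.96 ± 3.73 (n = 9), beyond the SD of Head Mesoderm (3.92 ± 1.48).

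**Figure D3:**
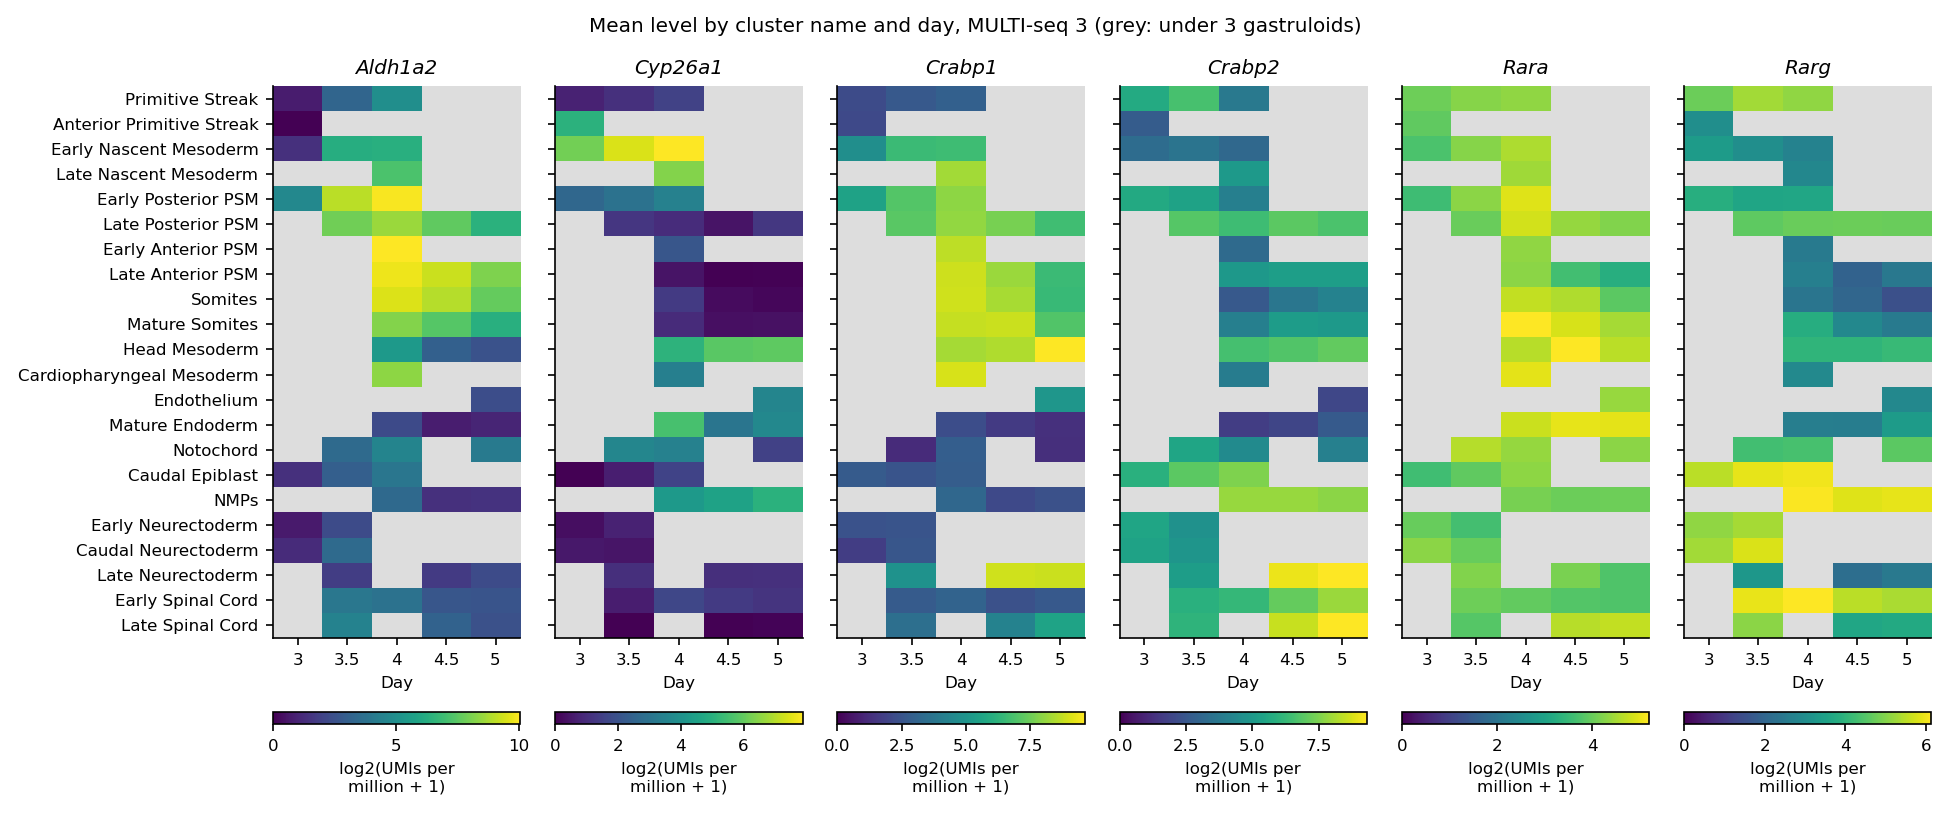
Mean level of each gene by cluster name (rows) and day (columns) in MULTI-seq 3, as log2(CPM + 1), with 1 colour scale per gene starting at 0 and grey where under 3 gastruloids had enough cells. The bright fields of Aldh1a2 are the presomitic and somitic names, those of Cyp26a1 nascent mesoderm, Head Mesoderm and NMPs, and those of Rarg the progenitor and early neural names.

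Patterns over the 46 pairs of name and day also tied the genes together in a descriptive way. Crabp1 and Aldh1a2 had r = 0.84, Crabp2 and Rarg 0.60, Rarg and Crabp1 -0.62, and Rarg and Aldh1a2 -0.55. Among 9371 genes, those most like Aldh1a2 were Smarcd3, Dact1 and Pcdh19 (r = 0.89 each), and those most like Crabp1 were Foxc2 (0.91), Pdgfra (0.90) and Prrx2 (0.90), genes known from mesoderm. Nearest to Rarg were Gtf3a (0.90), Nkx1-2 (0.89), a gene of the caudal epiblast, and Smim3 (0.88). Among the genes most like Cyp26a1 were Bambi (0.79) and Myl7 (0.75). Rara came closest to Pik3r3 (0.76), 1700003F12Rik (0.71) and Dlg4 (0.69), and Crabp2 to Dek (0.81), Dpysl4 (0.79) and Tamm41 (0.76).

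Between days 3.5 and 4 of MULTI-seq 3, Aldh1a2, Crabp1 and Rara rose in whole gastruloids and Rarg fell. Crabp1 had the largest change, a log2 fold change of 2.20 ± 0.39 (SE; edgeR adjusted p = 1.61e-05, 16 against 16 gastruloids), from 8.32 to 127 CPM at day 3.5 (median 27.8) to 31.6 to 385 at day 4 (median 243). Aldh1a2 rose by 1.36 ± 0.50 on the log2 scale (edgeR adjusted p = 0.0199), with the overlapping values given above. Rara rose by 0.53 ± 0.07 (edgeR adjusted p = 1.28e-07), from 13.5 to 20.5 CPM (median 16.3) to 17.3 to 28.7 (median 25.0). Rarg fell, with a log2 fold change of -1.02 ± 0.23 (edgeR adjusted p = 0.000268), from a median of 42.6 CPM to 15.5. In all 4 genes the groups overlapped. These 4 of 6 genes tested stand against 60.3% of all 13262 genes called in this comparison (31.1% higher and 29.2% lower, from edgeR's quasi-likelihood test with Benjamini-Hochberg adjustment), so change between these days was the rule among genes. Cyp26a1, at 1.13 ± 0.57 (edgeR adjusted p = 0.0837), and Crabp2, at -0.38 ± 0.18 (edgeR adjusted p = 0.0713), did not pass. Rarb was below the count filter, and in the fit without that filter it was at 3.73 (edgeR adjusted p = 1.97e-06). That value rests on few counts at day 3.5 and is not relied on as a call. In sums over whole gastruloids, more cells of a type and more RNA per cell cannot be told apart.

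Within cluster names, Aldh1a2 rose in 3 of the 4 names that could be tested between days 3.5 and 4. In Early Posterior PSM it went from 218 to 858 CPM (median 544, n = 13) to 744 to 1319 (median 1007, n = 16), a log2 fold change of 0.83 ± 0.16 (edgeR adjusted p = 1.09e-04). Most day 4 gastruloids were above most of day 3.5, with some overlap. In Caudal Epiblast, the cells at the tail end that feed the axis, it went from a mean of 7.17 CPM to 14.2 (1.01 ± 0.18, edgeR adjusted p = 5.49e-05, 15 against 15), and in Primitive Streak from 8.60 to 30.2 (1.97 ± 0.38, edgeR adjusted p = 0.00255, 16 against 5). Both levels are low, with the lowest name of day 4 in the same lanes at 3.83 CPM, and the part of free RNA in these changes was not tested. In Early Spinal Cord (10 against 5) it was at -0.28 ± 0.26 and did not pass. The share of all genes called was 38.2% in Early Posterior PSM, 21% in Caudal Epiblast, 5.19% in Primitive Streak and 3.05% in Early Spinal Cord.

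Early Posterior PSM carried most of the other calls. Its Crabp1 rose from 131 ± 55.5 CPM to 253 ± 52.3 (0.78 ± 0.15, edgeR adjusted p = 1.17e-04), the only name in which Crabp1 could be tested. Rara rose there from 15.8 to 23.1 CPM (median 17.5) to 13.3 to 37.9 (median 31.9), by 0.66 ± 0.08 (edgeR adjusted p = 4.80e-09). Crabp2 fell in the same cells, from 40.4 ± 22.6 CPM to 15.1 ± 6.34 (-1.18 ± 0.27, edgeR adjusted p = 8.17e-04), and in Primitive Streak from 49.3 to 150 CPM (median 93.2) to 3.47 to 19.1 (median 14.5), with no overlap (-2.74 ± 0.37, edgeR adjusted p = 1.13e-04). Caudal Epiblast had Crabp2 at 0.53 ± 0.24 (edgeR adjusted p = 0.124) and Early Spinal Cord at 0.30 ± 0.18 (edgeR adjusted p = 0.461). So Crabp2 fell in 2 of 4 names. Rarg, which fell in whole gastruloids, passed in 0 of 4 names, with log2 fold changes from -0.28 to 0.16. Cyp26a1 was tested in Early Posterior PSM only, at 0.29 ± 0.34 (edgeR adjusted p = 0.549). Without the count filter it was at 1.36 in Caudal Epiblast (edgeR adjusted p = 0.0136). That value rests on 25 UMIs at day 3.5 and 46 at day 4 and is not relied on as a call.

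Between days 4.5 and 5, Aldh1a2 and Crabp1 fell in whole gastruloids. Aldh1a2 had a log2 fold change of -1.14 ± 0.32 (edgeR adjusted p = 0.0148, 16 against 16), from a median of 111 CPM to 48.9, and Crabp1 one of -0.99 ± 0.26 (edgeR adjusted p = 0.0101), from a median of 148 to 70.0. Groups overlapped in both. That is 2 of 7 genes tested, where 13.3% of 12298 genes were called (6.98% lower). The other 5 did not pass: Cyp26a1 was at 0.51 ± 0.38, Crabp2 at 0.26 ± 0.37, Rarg at -0.26 ± 0.14, Rara at -0.04 ± 0.06 and Rarb at -0.01 ± 0.30. Without the gastruloid that stood apart, Aldh1a2 was at -1.23 (edgeR adjusted p = 0.0028), Crabp1 at -0.77 (edgeR adjusted p = 0.0205) and Crabp2 at 0.57 (edgeR adjusted p = 0.269).

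The fall of Aldh1a2 was found in every presomitic and somitic name with enough cells. In Somites it went from 366 to 590 CPM (median 479, n = 10) to 91.5 to 290 (median 195, n = 12), a log2 fold change of -1.23 ± 0.13 (edgeR adjusted p = 4.44e-06) with no overlap. In Late Anterior PSM, 483 to 706 CPM (median 595, n = 9) became 127 to 494 (median 265, n = 15), a change of -1.10 ± 0.17 (edgeR adjusted p = 3.40e-04), with an overlap of the lowest early and the highest late value. The remaining names were Late Posterior PSM (193 to 84.8 as means; -1.14 ± 0.22, edgeR adjusted p = 0.00103, 12 against 16) and Mature Somites (168 to 80.1; -1.01 ± 0.16, edgeR adjusted p = 4.01e-05, 13 against 16). Among all names tested it fell in 4 of 6. The 2 others were neural: Early Spinal Cord at -0.18 ± 0.18 and Late Spinal Cord at -0.65 ± 0.22 (edgeR adjusted p = 0.0665), where DESeq2 gave an adjusted p of 0.0408. All-gene shares called were 3.48% in Somites, 2.73% in Late Anterior PSM, 6.72% in Late Posterior PSM, 13.8% in Mature Somites, 12.3% in Early Spinal Cord, 7.89% in Late Spinal Cord, 7.29% in NMPs and 1.06% in Mature Endoderm.

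Crabp1 fell in the same 4 mesodermal names and rose in Early Spinal Cord. In Somites it went from 212 to 576 CPM (median 286) to 46.6 to 132 (median 89.0), with no overlap (-1.91 ± 0.20, edgeR adjusted p = 2.14e-06). In Late Anterior PSM, 154 to 557 CPM (median 286) became 54.5 to 123 (median 89.3), also with no overlap (-1.61 ± 0.18, edgeR adjusted p = 4.98e-06). Late Posterior PSM went from 201 ± 53.7 CPM to 101 ± 22.6 (-1.08 ± 0.13, edgeR adjusted p = 1.13e-06) and Mature Somites from 459 ± 320 to 129 ± 90.1 (-1.70 ± 0.33, edgeR adjusted p = 5.83e-04), the latter with a wide spread at both days. In Early Spinal Cord, the neural cells next to the progenitors, the level was low, at 0 to 8.95 CPM (median 3.77) at day 4.5 and 1.14 to 8.74 (median 5.77) at day 5, with full overlap. Its rise there of 0.63 ± 0.20 passed in edgeR (adjusted p = 0.0332). It did not pass in DESeq2 (0.51, adjusted p = 0.1205) or without the gastruloid that stood apart (0.62, edgeR adjusted p = 0.05005). In Late Spinal Cord the values were 6.95 to 66.2 CPM at day 4.5 (median 9.24, n = 7) and 12.9 to 67.9 at day 5 (median 51.6, n = 8), at 1.22 ± 0.46 (edgeR adjusted p = 0.131). There 6 of the 7 early gastruloids were between 6.95 and 13.9 CPM and the gastruloid that stood apart was at 66.2. Left out, it gave a rise of 2.28 ± 0.37 (edgeR adjusted p = 0.00332), so that this value rests on 1 gastruloid.

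**Figure D4:**
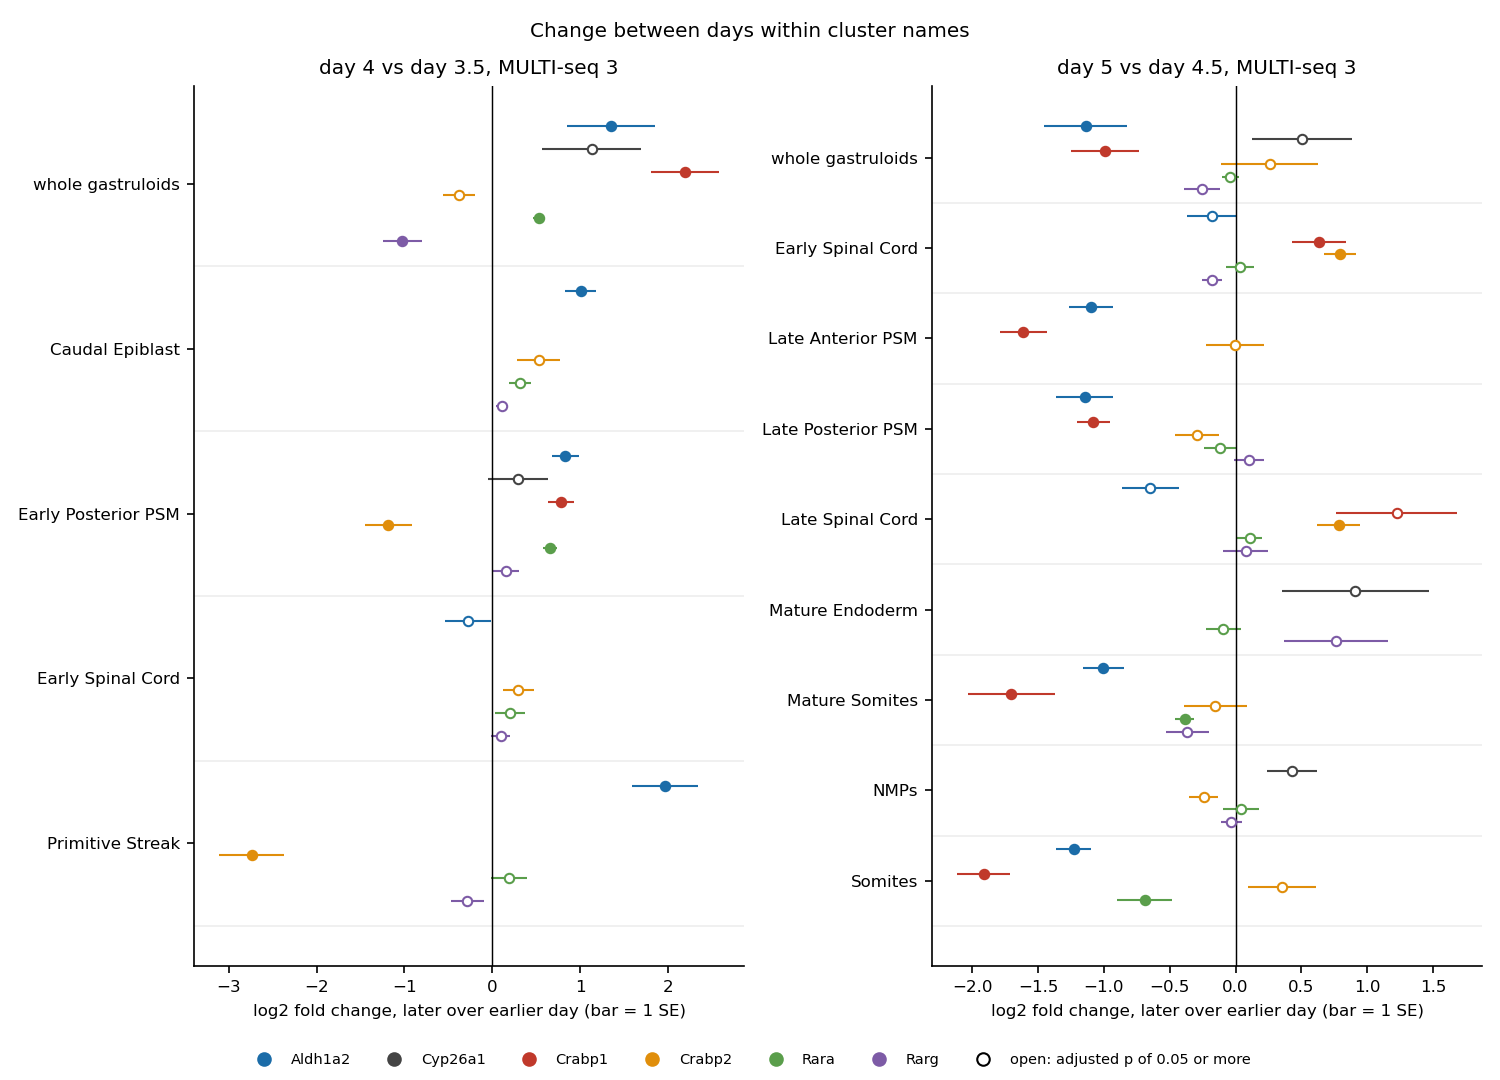
Log2 fold change of the later over the earlier day (x axis, with 1 SE) within cluster names (y axis), 1 colour for each gene drawn (Rarb is left out); filled points have an adjusted p under 0.05 and open points do not. At day 5 against 4.5 the Aldh1a2 and Crabp1 points of the 4 presomitic and somitic names lie left of 0, while Crabp2 lies right of 0 in both spinal cord names.

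Crabp2 rose in both spinal cord names and in none of the 5 other names tested. In Early Spinal Cord it went from 74.4 to 223 CPM (median 135, n = 15) to 151 to 356 (median 242, n = 16), by 0.80 ± 0.12 (edgeR adjusted p = 4.29e-05). In Late Spinal Cord 232 to 563 CPM (median 380, n = 7) became 538 to 725 (median 645, n = 8), by 0.78 ± 0.16 (edgeR adjusted p = 0.00981), with a slight overlap. Elsewhere its log2 fold changes ran from -0.29 in Late Posterior PSM to 0.35 in Somites. Without the gastruloid that stood apart, the rise was 0.86 ± 0.12 in Early Spinal Cord (edgeR adjusted p = 1.20e-05) and 0.93 ± 0.14 in Late Spinal Cord (edgeR adjusted p = 0.00176). That gastruloid was picked for its high Crabp2 at day 4.5, so a larger rise without it was built in.

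Of the receptors, Rara fell in Mature Somites, from 17.5 to 43.6 CPM (median 28.9) to 15.9 to 25.9 (median 21.6), a log2 fold change of -0.39 ± 0.07 (edgeR adjusted p = 8.83e-05), and in Somites, with one of -0.69 ± 0.21 (edgeR adjusted p = 0.0463), where DESeq2 gave an adjusted p of 0.0553. That makes 2 of 7 names. Rarg passed in 0 of 6 names, and Cyp26a1 in 0 of 2, with 0.43 ± 0.19 in NMPs (edgeR adjusted p = 0.185) and 0.91 ± 0.56 in Mature Endoderm (edgeR adjusted p = 0.543). Rarb passed no count filter within a name. Its mean in Mature Somites was 2.46 ± 1.63 CPM at day 4.5 and 0.800 ± 0.371 at day 5 (-1.83, edgeR adjusted p = 9.94e-08 in the fit without the filter). In Mature Endoderm it was 1.94 ± 2.37 and then 7.96 ± 3.73 CPM (1.85, edgeR adjusted p = 0.00512 in such a fit). In Early Spinal Cord no Rarb UMI was counted at day 4.5 and the mean at day 5 was 0.153 CPM, so no fold is given. The signs differ between the somitic and the endodermal name, and the changes were not tested against each other. Fits without the filter gave very small p-values for other genes too.

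Whether the change with day differed between neural and somitic cells was tested for the best covered name of each kind. The gastruloid was a block, and the test was added after the data had been seen. The change from day 4.5 to 5 in Early Spinal Cord minus that in Mature Somites was 2.79 ± 0.40 on the log2 scale for Crabp1 (edgeR adjusted p = 6.98e-05) and 1.08 ± 0.25 for Aldh1a2 (edgeR adjusted p = 0.0104), from 12 gastruloids of day 4.5 and 16 of day 5 that held both names. These are 2 of 5 genes tested, against 4.05% of 10468 genes (2.03% higher in Early Spinal Cord). Crabp2 was at 0.92 ± 0.31 (edgeR adjusted p = 0.107), Rara at 0.44 ± 0.16 (edgeR adjusted p = 0.111) and Rarg at 0.12 ± 0.20 (edgeR adjusted p = 0.835). For Crabp2, then, the rise in Early Spinal Cord was not shown to differ from the change in Mature Somites. It passed with no count filter only (0.90, edgeR adjusted p = 6.48e-21). In that fit the standard errors collapse for genes at very low counts and the adjusted p of Crabp1 falls to 2.27e-65, so its calls are not relied on. Without the gastruloid that stood apart, the differences were 2.80 ± 0.42 for Crabp1 (edgeR adjusted p = 1.02e-04) and 1.17 ± 0.25 for Aldh1a2 (edgeR adjusted p = 0.00451). Both genes were low in Early Spinal Cord at days 4.5 and 5, with means of 4.23 and 5.48 CPM for Crabp1 and 5.47 and 5.15 for Aldh1a2. The lowest names of these days had 2.11 and 1.44 of Crabp1 and 0.742 and 1.06 of Aldh1a2. A fall like that in Mature Somites may not be visible at such levels, and the part of free RNA in them was not tested.

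**Figure D5:**
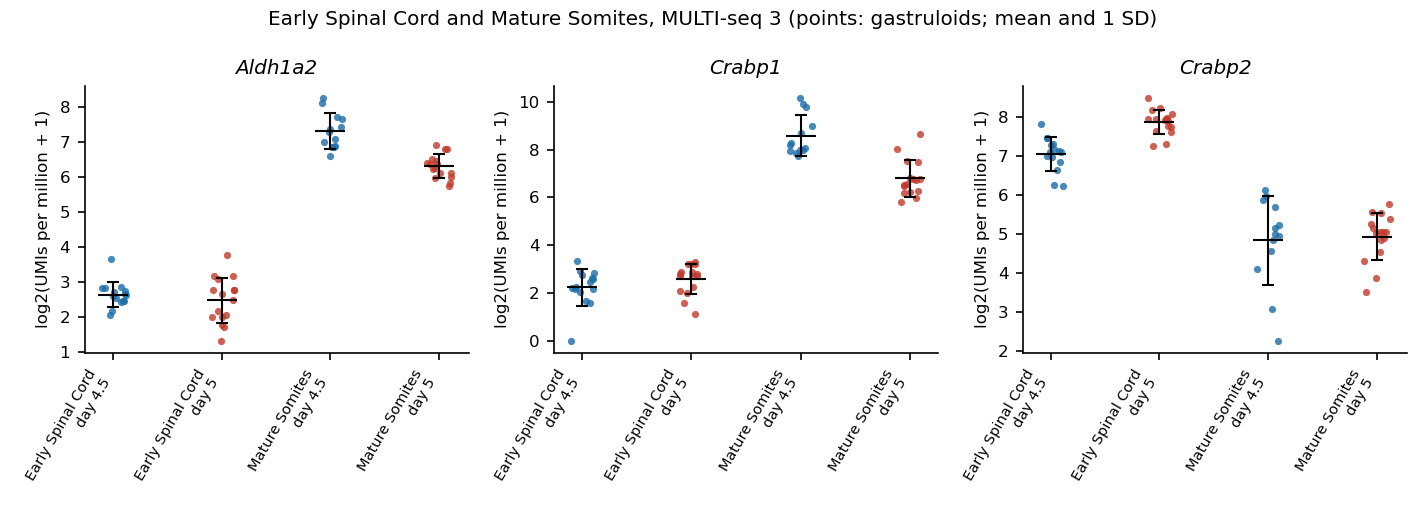
Levels in Early Spinal Cord and Mature Somites of MULTI-seq 3 at days 4.5 and 5, as log2(CPM + 1), 1 point per gastruloid with mean and 1 SD. Aldh1a2 and Crabp1 drop in Mature Somites (means of 168 to 80.1 and 459 to 129 CPM), while Crabp1 stays at a low level in Early Spinal Cord (4.23 to 5.48) and Crabp2 is higher there at day 5 (136 to 237).

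MULTI-seq 2 offers the step from day 4 to day 4.5 within 1 pool. Crabp2 rose in whole gastruloids, from 17.8 to 99.1 CPM (median 41.3, n = 11) to 54.6 to 182 (median 82.8, n = 12), by 1.02 ± 0.30 (edgeR adjusted p = 0.0421), with overlap. It was 1 of 6 genes tested, where 7.19% of 11064 genes were called (2.96% higher). The call rested on single settings: it was lost without lane 3 (edgeR adjusted p = 0.1803), with a minimum of 100 cells (0.1514) and with no count filter (0.0666). Aldh1a2, at -0.90 ± 0.45 (edgeR adjusted p = 0.248), and Cyp26a1, at -1.12 ± 0.56 (edgeR adjusted p = 0.244), did not pass, and Crabp1, Rara and Rarg lay between 0.04 and 0.19. Late Posterior PSM was the 1 name with enough cells (6 against 8 gastruloids). Crabp1 fell in it, with a log2 fold change of -0.64 ± 0.10 (edgeR adjusted p = 1.91e-04), as 1 of 5 genes tested where 0.972% of 6275 genes were called, and Aldh1a2 was at -0.04 ± 0.35.

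Retinoic acid can pass from the cells that make it to others, so the genes in neural and progenitor cells were set against the Aldh1a2 level in all other cells of the same gastruloid at day 5. In none of 4 fits did a gene of the pathway pass. They covered Late Spinal Cord with 15 gastruloids in MULTI-seq 1 and 8 in MULTI-seq 3, and NMPs with 22 and 16. The shares of all genes called were 0% of 9632, 0% of 10769, 0.0305% of 6547 and 0.0659% of 9111, and 427, 258, 460 and 654 genes had an unadjusted p under 0.05. Crabp2 in NMPs of MULTI-seq 1 came closest, at -0.19 ± 0.04 per doubling of Aldh1a2 (edgeR adjusted p = 0.0813), and passed in DESeq2 (adjusted p = 0.0318). The same coefficient was -0.11 ± 0.12 in MULTI-seq 3 (edgeR adjusted p = 0.902). For Crabp1 in Late Spinal Cord it was -0.98 ± 0.31 in MULTI-seq 1 (edgeR adjusted p = 0.981) and -0.43 ± 0.60 in MULTI-seq 3. Cyp26a1 in NMPs had -0.09 ± 0.09 and -0.08 ± 0.18, so that a 95% interval of the first runs from -0.27 to 0.09.

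How far the spread between gastruloids of one day follows their makeup was described by predicting each gastruloid from its share of UMIs in each name and the name's mean in the other gastruloids. At day 4 of MULTI-seq 3 this left 3.51% of the variance of Aldh1a2, 3.11% of that of Rarg, 9.79% of Crabp1, 15.4% of Crabp2 and 22.6% of Rara. Cyp26a1 kept 64.7%, which goes with its range of 24.8 to 170 CPM within Late Nascent Mesoderm. At day 3.5 the shares left were 11.6% for Aldh1a2, 13.2% for Cyp26a1, 9.76% for Rarg and 8.98% for Crabp1, but 82.4% for Crabp2 and 73.4% for Rara. Day 5 left 2.25% for Crabp2, 8.58% for Rarg, 19.4% for Cyp26a1, 34.2% for Aldh1a2 and 48.6% for Crabp1. MULTI-seq 1 at day 5 (n = 24) had another order, with 8.67% for Crabp2, 18.8% for Rarg, 39.7% for Cyp26a1, 20.9% for Aldh1a2 and 15.6% for Crabp1. At day 4.5 of MULTI-seq 3 Aldh1a2 was left with 7.39%, Crabp1 with 97.8% and Crabp2 with 55.1%. Without the gastruloid that stood apart these shares were 8.97%, 38.8% and 16.8%. Day 3 left more: 82.5% for Aldh1a2, 65.1% for Crabp1, 63.8% for Crabp2, 36.7% for Rarg, 32.2% for Cyp26a1 and 100.03% for Rara. Names were made from expression, so a good prediction is in part built in.

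Other genes of the pathway were read from 3 textbook lists. From day 3.5 to 4 in whole gastruloids, 9 of the 11 co-receptors and cofactors rose and 1 fell (median log2 fold change 0.22, against 0.01 over all genes). The lists' counts stand beside 31.1% of all genes higher and 29.2% lower in this comparison. The co-receptor that fell was Rxrg, an RXR partner of the receptors, at -2.36. Of 13 known target genes tested, 5 rose and 2 fell (median 0.34), with the homeobox genes Meis1 at 2.75 and Cdx1 at -2.44 among them. Of 9 synthesis, transport and storage genes tested, 2 rose and 1 fell (median 0.10). These were Rdh10, which makes the retinaldehyde that Aldh1a2 uses, at 1.12, Dhrs4 at 0.10 and Aldh1a3, a second retinaldehyde dehydrogenase, at -0.64, named after their values were seen because so few passed. Within names of that step, Cdx1, a caudal gene, fell in 3 of them: it was at -1.19 in Caudal Epiblast, -2.44 in Early Posterior PSM and -3.02 in Primitive Streak. Meis2 rose by 1.34 in Caudal Epiblast, by 1.5 in Primitive Streak and by 0.89 in Early Spinal Cord. Counts per list are not given for single names, so Cdx1 and Meis2 do not stand for the other targets there.

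From day 4.5 to 5 in whole gastruloids, 0 of 7 synthesis, transport and storage genes and 0 of 10 co-receptors and cofactors passed edgeR's quasi-likelihood test, and 1 of 12 targets fell, Cdx1 at -1.46, where 13.3% of all genes were called and 6.98% were lower. The medians were 0.07, 0.01 and 0.01. Within names, single genes of these lists were called, given here without counts per list. They were picked among the genes called, so they do not describe how the lists as a whole behaved in a name. The shares of all genes called in each name, 1.06% to 13.8%, are given above. Meis2 fell in Somites (-0.90), Late Anterior PSM (-0.52), Late Posterior PSM (-0.73) and Mature Somites (-0.41), and rose in Mature Endoderm (2.35) and Late Spinal Cord (0.30). Hoxb1, a direct target in the embryo, rose by 0.55 in Early Spinal Cord and by 1.23 in Late Spinal Cord, and was lower in Mature Somites, at -1.17. Other targets of its family had the other sign in Mature Somites, where Hoxb4 and Hoxd4 were called higher (0.40 and 0.41). They were also called higher in Early Spinal Cord (0.25 and 0.45), as Hoxb1 was, and in NMPs (0.21 and 0.55). These genes were not tested against each other. Hoxb4 was also higher in Late Posterior PSM (0.26) and Hoxd4 in Late Spinal Cord (0.47), and both were named after their values were seen. Rdh10 was at -1.17 in Mature Somites and at -0.67 in Late Spinal Cord, both past the threshold. In MULTI-seq 2, between days 4 and 4.5, 2 of 12 targets passed in whole gastruloids, Pax6 (2.18) and Cdx1 (-1.93), beside 1 of 7 synthesis, transport and storage genes, Rdh11 (-0.48), and 1 of 11 co-receptors and cofactors, Fabp5 (0.29). The share of all genes called there was 7.19%.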

How the data were processed

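Single-cell RNA-seq of gastruloids was read from the authors' deposited matrices of UMI counts, made with Cell Ranger 6.0.0 on mm10 and handled in Seurat, per the submitters' processing notes. No source used here names the cell filters or the annotation behind the counts. The authors' deposited cell table gave the final cells, the MULTI-seq calls and the cluster names. Gene coordinates come from GENCODE M21 (mm10). The genes and the lists were chosen with earlier results of these data known.

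Counts were summed per gastruloid (at least 30 cells), or per gastruloid and name (at least 10 cells, and 5 gastruloids a day). Lanes are technical splits. Cells called negative or doublet entered no sum per gastruloid and no test. They are in the UMI totals over all final cells and in the Cyp26b1 and Cyp26c1 values by name over all days, as are lanes without gastruloid calls. MULTI-seq barcodes called 4.22% to 18.8% of final cells doublets in the lanes of MULTI-seq 2 pool B and MULTI-seq 3, and no doublet caller was run, so doublets within a gastruloid may remain. Pairs of lanes shared at most 15 cell barcodes, and at most 0.41% of the smaller lane's (10 barcodes, in another pair), and 9 cells without a barcode in the matrix were dropped. Pool C of MULTI-seq 2 and the 10X lanes carried no gastruloid calls and entered no test, and days 3 and 3.5 of MULTI-seq 2 were not analysed here.

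Tests used edgeR 4.0.16 (quasi-likelihood, TMM, filterByExpr, robust; R 4.3.3) with Benjamini-Hochberg adjustment over all genes of a fit and a threshold of 0.05, called edgeR adjusted p in the text. The method was tested on simulated data. A standard error is the log2 fold change over the square root of F, so it ignores moderation, and a 95% interval is normal. DESeq2 1.42.0, other size factors, no filter, other minimums and left-out lanes were alternatives. Gastruloids were grown in separate wells, and nothing says that they came from separate cultures of cells, so p-values measure the spread between gastruloids of one experiment. All 9 genes are described in each comparison. The rule for the lists was at most 4 genes per comparison, those with the largest absolute change among those called. It was not kept everywhere. More genes are named for day 3.5 to 4 in whole gastruloids and for day 4.5 to 5 in Mature Somites. Some of them were named after their values were seen. For similar genes the rule was the 3 with the highest r to each detected gene. A few genes that these rules name are not reported here. Levels, shares of cells with a UMI (each cell thinned to 4000 UMIs, 0 cells left out), makeup and similar genes (Pearson, log2(CPM + 1), mean of at least 5 CPM) are described without a test. Intervals cover counting error only.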

Additional observations from a re-analysis of the deposited data

Results flagged for a closer look

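In 7 of 114 groups of 4 to 10 gastruloids of MULTI-seq 3, one value of a gene lay far from the others by Dixon's ratio (the gap to the nearest value over the whole range, against the 95% critical value). Chance marks about 1 group in 20. The most extreme was Crabp1 in Late Spinal Cord at day 4.5 (ratio 0.883), with 66.2 CPM against 6.95 to 13.9 in the others. This was the neural gastruloid that stood apart. Crabp1 in Late Anterior PSM at day 4.5 had a ratio of 0.594, with 557 CPM against 154 to 317. Crabp2 in Late Posterior PSM at day 3.5 had 0.84, where the lowest gastruloid was at 61.5 CPM and the others at 126 to 139. Aldh1a2 in Early Spinal Cord at day 3.5 had 0.485, with 29.0 CPM against 5.40 to 17.6. Cyp26a1 in Notochord at day 4 had 0.709, with 31.2 CPM against 0 to 9.09, and Rara in the same cells 0.598, with a lowest value of 8.52 against 18.2 to 24.7. Both values came from the same gastruloid, which had under 20 Notochord cells, so they are not separate results. With a minimum of 20 cells the means of that name were 6.35 CPM for Cyp26a1 and 21.7 for Rara. Rarg in Primitive Streak at day 4 had 0.736, with 65.8 CPM against 21.6 to 33.3.

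The change from day 4.5 to day 5 differed between Early Spinal Cord and Mature Somites for Crabp1, by 2.79 on the log2 scale, and for Aldh1a2, by 1.08, in edgeR's quasi-likelihood test of the difference itself (Benjamini-Hochberg adjusted p = 6.98e-05 and 0.0104).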

How the results depend on the processing

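Of 376 values of the 9 genes under an alternative, 355 kept their direction and side of the threshold, 6 lost a call, 5 gained one and 10 changed sign. None of the 10 passed a test on either side (smallest adjusted p 0.508). They were Rarb from day 4.5 to 5 in whole gastruloids (0.128 without lane A, 0.0901 without the gastruloid that stood apart), Crabp2 in Late Anterior PSM (0.0107 by DESeq2, 0.0063 with no filter), Rarg in Late Spinal Cord (-0.0318 without the gastruloid that stood apart), and from day 4 to 4.5 Rara (-0.0501 with a minimum of 100 cells, -0.0374 without lane 3) and Crabp1 (-0.43 with that minimum, -0.0641 and -0.0277 without lane 2 or 3). From day 4 to 4.5, the 795 calls over all genes became 500 without lane 2 and 322 without lane 3. In the fits on the Aldh1a2 level, using the percent of spinal cord cells instead gave 26 and 15 calls in Late Spinal Cord (MULTI-seq 1 and 3, from 0 each) and 11 and 12 in NMPs (from 2 and 6). The 2 in NMPs of MULTI-seq 1 became 5 by DESeq2, 1 with a minimum of 20 cells and 0 without the 2 farthest gastruloids, which left 2 of the 6 in MULTI-seq 3. The latter was not run for Late Spinal Cord of MULTI-seq 3, where 6 gastruloids would remain. With 20 cells per name the leading name was the same in 21 of 35 pairs of gene and day, and 12 pairs then had too few gastruloids. Thinning to 2000 UMIs gave 83.25% of cells with Aldh1a2 in place of 95.5%, since fewer UMIs are kept. Of 18 similar genes, 6 were found by Spearman's rho too. Of 82 levels of leading names under other settings, 75 stayed within 1 SD, and 12 of 17 did in another experiment. Leaving out the gastruloid that stood apart and the test of a difference between names were chosen after seeing the data. No paired analysis was possible because replicate numbers in the labels mark lanes of one pool, not gastruloids, and days hold different gastruloids. The gastruloid served as a block only where names within it were compared. Depth limits Cyp26b1, Cyp26c1 and, within names, Rarb.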
